A study of Sus scrofa with 48 samples.

Results

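The MHC class II genes of the pig were followed in perirenal adipose tissue (PRAT), the visceral fat around the kidney. They were taken as every probe of a porcine Agilent array whose gene name was SLA-DRA, SLA-DRB1, SLA-DQA1, SLA-DQB1, SLA-DMA, SLA-DMB, SLA-DOB or CD74. These 8 genes of 10922 named on the array were read by 28 of its 60305 probes, with 7 probes for SLA-DRA, 4 each for SLA-DRB1, SLA-DQB1 and CD74, 3 for SLA-DOB and 2 each for SLA-DQA1, SLA-DMA and SLA-DMB. The rule used gene names and no measured value.

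The 48 pigs were Large White barrows aged 132 days, 1 array per pig. They came from a pair of lines selected in opposite directions for residual feed intake (RFI), the gap between what a pig eats and what its growth and fatness predict. Pigs of the low RFI (RFIneg) and the high RFI (RFIpl) line ate ad libitum. The HF diet was rich in fat and fiber, the LF diet was poor in both and rich in starch, with 12 pigs in each of the 4 groups. Each direction of selection was represented by a single line, so that selection for RFI and chance differences between these lines, alleles of the MHC included, cannot be told apart.

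Class II molecules present peptides from the endosomal pathway to CD4 T cells. An alpha and a beta chain form each classical molecule (SLA-DRA with SLA-DRB1, SLA-DQA1 with SLA-DQB1), and the chain encoded by CD74, the invariant chain, fills the groove and guides the pair to the endosome. There SLA-DM, made of SLA-DMA and SLA-DMB, helps peptides to replace the remnant of the invariant chain, and SLA-DOB is the beta chain of SLA-DO, which restrains DM. Macrophages, dendritic cells and B cells are the main class II cells of fat, and adipocytes can also carry these genes. The DQ genes and DRB1 are highly polymorphic, whereas DRA varies little. In the RefSeq gene table of Sscrofa11.1 the 7 SLA genes lay on chromosome 7 in the order SLA-DRA, SLA-DRB1, SLA-DQA1, SLA-DQB1, SLA-DOB, SLA-DMB and SLA-DMA, and CD74 lay on chromosome 2.

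Each probe was a single 60-base sequence, so that an allele that departs from it can change hybridization without any change in the RNA. The DQ alpha probes are shown first because the widest differences between pigs were found there. The array held 2 probes named SLA-DQA1 and 7 named SLA-DQA, and SLA-DQA is an older name of SLA-DQA1 in the RefSeq table. The SLA-DQA1 probe starting at base 277 of its listed transcript (A_72_P743257) and the SLA-DQA probe at base 310 of another (A_72_P763148) covered the same stretch of 59 bases. They differed at the 5 bases in capitals, which counted from the 5′ end of the first probe were T4A, C7A, C18G, A41C and A54C, with the SLA-DQA1 base first.
SLA-DQA1 277: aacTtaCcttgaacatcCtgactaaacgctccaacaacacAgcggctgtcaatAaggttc
SLA-DQA 310: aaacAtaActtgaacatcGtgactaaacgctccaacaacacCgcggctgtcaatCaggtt

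The only member probe called between the lines, SLA-DQB1 at base 13 (A_72_P631166), ended in the 22 bases below, which begin with its first ATG (in capitals). Both SLA-DRB1 probes that overlapped shared the 38 bases in capitals, without mismatch. A probe each of SLA-DRA, SLA-DMA, SLA-DMB, SLA-DOB and CD74 is given for the other chains, in lower case throughout.
SLA-DQB1 13: ATGtctgggatggtggctctgc
SLA-DRB1 608: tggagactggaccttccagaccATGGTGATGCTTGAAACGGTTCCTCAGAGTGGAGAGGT
SLA-DRB1 630: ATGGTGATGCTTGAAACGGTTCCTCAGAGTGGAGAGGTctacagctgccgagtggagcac
SLA-DRA 250: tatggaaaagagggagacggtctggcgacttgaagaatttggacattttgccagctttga
SLA-DMA 355: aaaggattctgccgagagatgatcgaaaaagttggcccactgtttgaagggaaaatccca
SLA-DMB 429: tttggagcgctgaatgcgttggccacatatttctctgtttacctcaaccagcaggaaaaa
SLA-DOB 199: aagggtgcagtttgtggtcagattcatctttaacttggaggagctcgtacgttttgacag
CD74 434: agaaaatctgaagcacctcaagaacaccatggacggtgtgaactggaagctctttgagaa

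Signal was read as log2 of the spot's median intensity minus the median of its array, so that 0 is the middle probe of an array. The median signal of an array was 115 to 178 intensity units over a local background of 23 to 33, and 38875 to 47814 spots per array stood well above background. The arrays sat on 6 slides of 8, each with 2 pigs of every group, and were scanned on 2 days. The adipocyte genes ADIPOQ and FABP4, encoding adiponectin and a fatty acid carrier, were at a mean of 10.2 and 10.8, so that defining markers of the labelled tissue were present. All 48 arrays read 25 of the 28 member probes well above background. The exceptions were all 3 SLA-DOB probes, above background on 47, 29 and 5 arrays, and no member spot was flagged or saturated.

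A single pig stood apart on these genes before any comparison. Pig 11 of the LF low RFI group had the highest value of all 48 pigs on 18 of the 28 probes, with a median of 0.91 above its group mean, against 0.49 for the next pig (pig 5 of the HF low RFI group). Its array was ordinary in median signal (126 units, rank 40 of 48 from the highest) and in spots above background (44911, rank 12). The pig also had the highest summed level of the interferon gamma signalling genes listed further on, of the dendritic cell markers and of the mesothelial markers. The dendritic cell sum was low, at 3.79 array medians, and included FLT3, which was above background on no array. The pig ranked 3 of 48 for the genes of endosomal peptide supply, 4 for fibroblast, 5 for macrophage, 6 for lymph node and 7 for B and plasma cell markers. It ranked 17 for T and NK cell markers, 21 for costimulation and turnover and 25 for transcription of class II genes. For kidney, endothelial, adrenal and adipocyte markers it ranked 33, 36, 38 and 45. The part of these in its class II values was not tested. Results that rest on this pig are given with and without it.

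**Figure D1:**
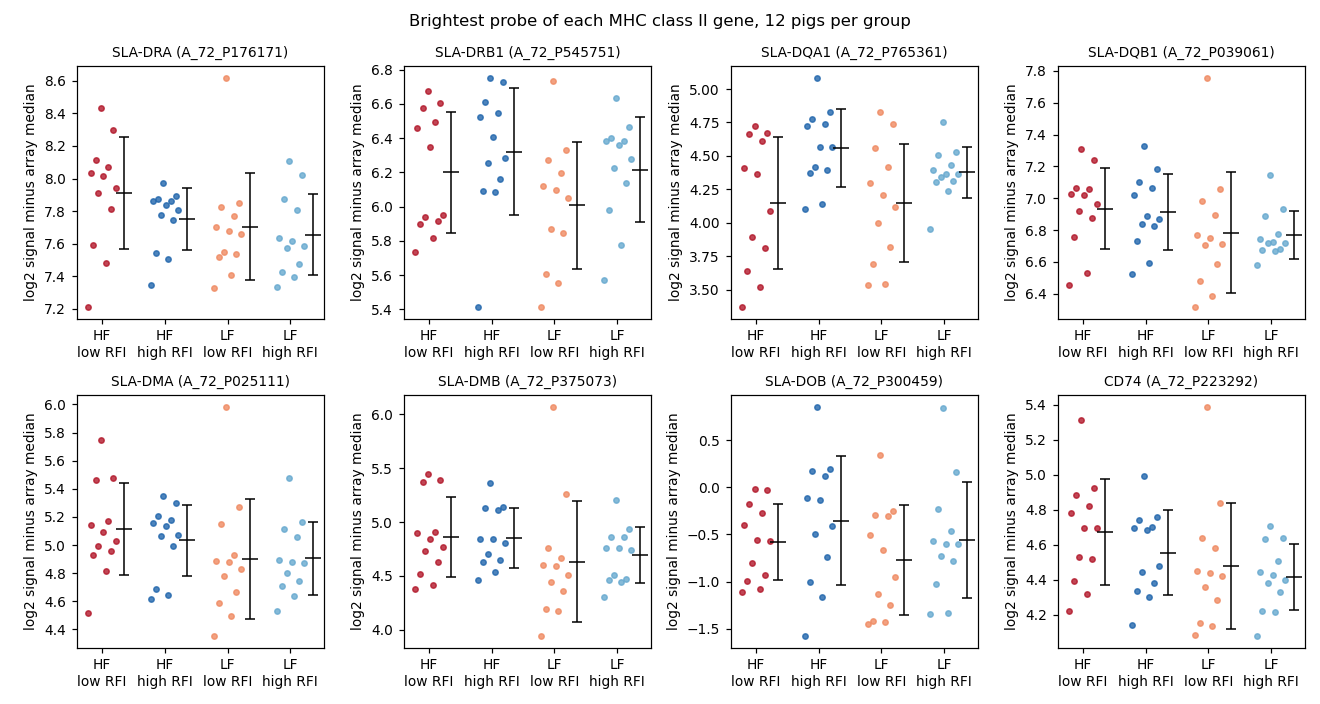
Signal of the brightest probe of each gene in the 4 groups (log2 signal minus array median), 1 point per pig and 12 pigs per group, with the mean and SD beside them. The groups overlap in every panel, and the highest LF low RFI point of SLA-DRA, at 8.62, is pig 11.

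The first comparison asked whether the dietary energy source altered class II expression. No member probe was called between diets, although 27 of the 28 had a higher mean in HF pigs, by at most 0.23 on the log2 scale. The median difference was 0.17 over the 28 probes and -0.04 over all probes, of which 37.2% had a higher mean in HF pigs. Over the 37104 probes well above background on all arrays the median was -0.02, and 44.3% had a higher mean in HF pigs. The 25 member probes among them had a median of 0.17. When only those 37104 probes were fitted, 25.5% were called between diets, 9.4% higher and 16.1% lower in HF pigs. A probe was called where limma gave a raw p under 0.01, a fold change over 1.1 and a Benjamini-Hochberg adjusted p under 0.08 over all 60305 probes, and by this rule 17.7% of all probes were called between diets, 6.23% higher and 11.4% lower in HF pigs (8.62% and 7.95% with quantile normalization). Of the member probes, 6 had an unadjusted p under 0.05, none had one under 0.01, and a two-way analysis of variance with the same thresholds also called 0. Probes of a gene share their target, so that 27 probes are not 27 separate observations.

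For SLA-DRA, the alpha chain shared by all DR molecules, the brightest probe (base 1158, A_72_P176171) ran from 7.21 to 8.43 with a median of 7.98 in HF low RFI pigs. It ran from 7.35 to 7.97 around 7.82 in HF high RFI pigs. In LF pigs it ran from 7.33 to 8.62 around 7.67 in the low RFI line and from 7.33 to 8.11 around 7.60 in the high RFI line. The HF medians were the higher ones in both lines, yet the ranges overlapped almost entirely. The HF minus LF difference was 0.15 ± 0.08 (SE, 24 pigs per diet, adjusted p = 0.185), and 18 of 24 HF pigs lay above the median LF pig. Across the 7 SLA-DRA probes the difference was 0.11 to 0.16.

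CD74, encoding the invariant chain, gave similar values on all 4 of its probes, with differences of 0.16 to 0.19 and adjusted p of 0.0812 to 0.186. On the probe A_72_P395573 HF low RFI pigs ran from 4.04 to 5.10 around a median of 4.55 and HF high RFI pigs from 4.01 to 4.77 around 4.40. LF low RFI pigs ran from 3.85 to 5.17 around 4.21 and LF high RFI pigs from 3.91 to 4.51 around 4.20. Again both HF medians exceeded both LF medians with overlapping ranges, and the difference was 0.19 ± 0.08 (SE).

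The smallest adjusted p of the members between diets belonged to SLA-DMA, the DM alpha chain. On its probe at base 355 (A_72_P427349) the lowest, median and highest values were 1.93, 2.41 and 2.99 in HF low RFI pigs and 1.95, 2.34 and 2.62 in HF high RFI pigs. They were 1.71, 2.12 and 3.23 in LF low RFI pigs and 1.90, 2.15 and 2.54 in LF high RFI pigs. The groups overlapped, 20 of 24 HF pigs lay above the LF median, and the difference was 0.20 ± 0.08 (SE, p = 0.0171, adjusted p = 0.0734), short of the threshold on the raw p. Its partner SLA-DMB showed differences of 0.23 ± 0.10 at base 429 (adjusted p = 0.0921) and 0.19 ± 0.11 at base 1224.

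The beta chains and DQ gave values of similar size. The 4 SLA-DRB1 probes had differences of 0.15 to 0.19 and the 4 SLA-DQB1 probes differences of 0.15 to 0.22. SLA-DQA1 gave 0.21 ± 0.28 at base 277 and 0.09 ± 0.10 at base 1110. For SLA-DOB, the DO beta chain, the differences were 0.02, -0.01 and 0.20 at bases 199, 700 and 1197, and the first pair of these probes was often not above background. Of 12 probes under other class II names, 1 was called between diets, where 17.7% of all probes were called. It was a transcript annotated as resembling a DR alpha chain (TC579429), at 0.21 ± 0.05 (SE, adjusted p = 0.00425). On this probe pig 11 of the LF low RFI group had the lowest value of all pigs (2.65), whereas on SLA-DRA at base 1158 it had the highest (8.62).

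Pig 11 of the LF low RFI group weighed on these counts. It was singled out by its high values on these same probes. Leaving it out therefore raises the HF minus LF differences by construction, and the calls gained are not separate support for a diet difference. Without this LF pig, 12 of the 28 probes were called higher in HF pigs, which were all 4 of CD74, both of SLA-DMA, both of SLA-DMB, 3 of SLA-DQB1 (bases 13, 850 and 1061) and 1 of SLA-DRA (base 1158). In that fit 18.1% of all probes were called between diets, 6.36% higher in HF pigs. The differences were then 0.25 for SLA-DMA at base 355, 0.29 for SLA-DMB at base 429 and 0.23 for CD74 on A_72_P395573. Leaving out pig 11 of the HF low RFI group, whose median deviation was the lowest of the 48 (-0.48), gave 2 calls, and leaving out any other pig gave 0. Within slides the median difference over the 28 probes was positive on 5 of 6, from 0.06 to 0.29, and was -0.11 on the sixth. That slide held pig 11 of the LF low RFI group as well as pig 11 of the HF low RFI group.

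**Figure D2:**
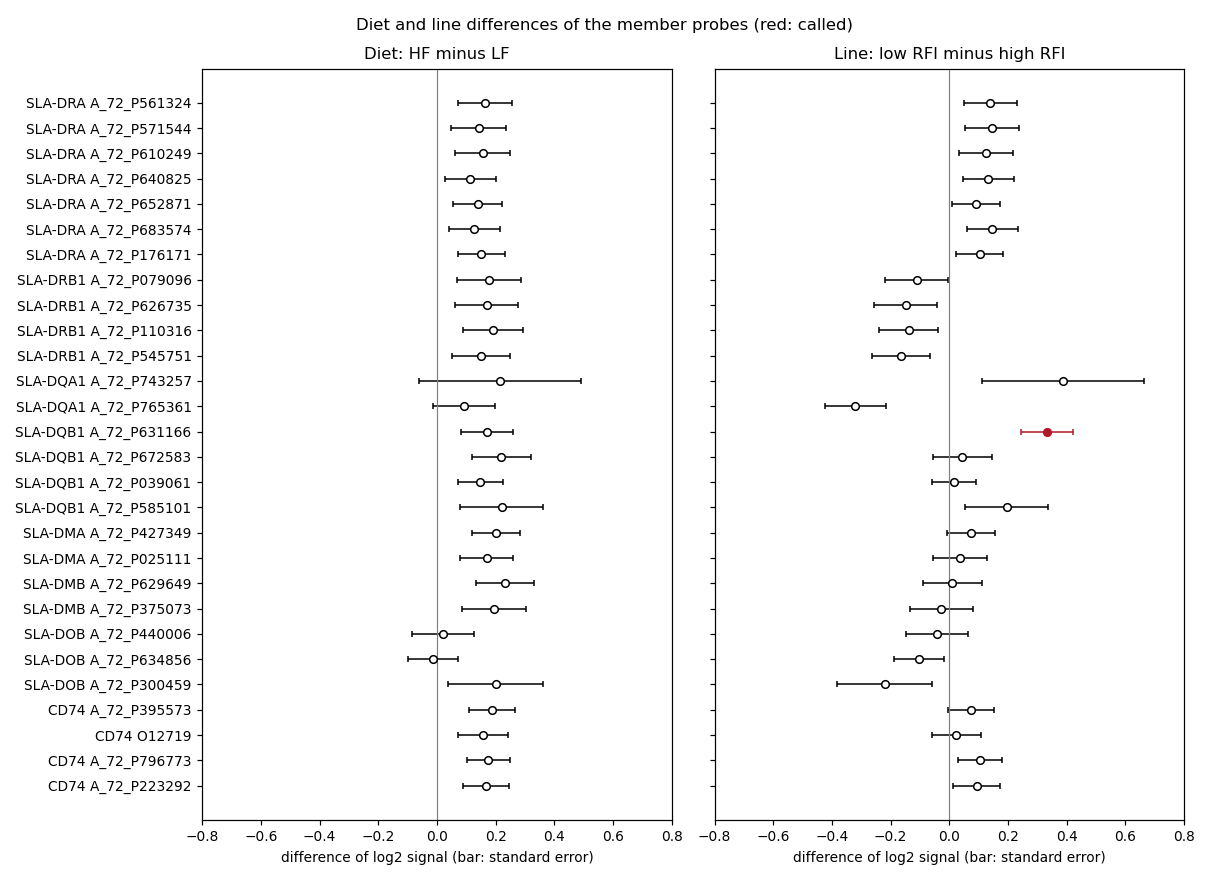
Difference of each of the 28 member probes between diets (left, HF minus LF) and between lines (right, low RFI minus high RFI) in log2 signal, with bars of 1 SE; red marks a called probe. Between diets 27 points lie right of 0 and none is called, while between lines the points spread to both sides and a single SLA-DQB1 probe, at 0.33, is called.

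The second comparison asked whether the lines differed. A single member probe of 28 was called, SLA-DQB1 at base 13, higher in low RFI pigs. Between lines 2.17% of all probes were called (1.11% higher and 1.06% lower in low RFI pigs). The median line difference, low RFI minus high RFI, was 0.06 over the members, which ran from -0.32 to 0.39, and 0.0021 over all probes. It was positive for 19 of the 28 probes. Without pig 11 of the LF low RFI group the median was 0.0071, with 14 of 28 positive.

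SLA-DQB1 encodes the DQ beta chain. Its base 13 probe ran from 1.93 to 2.77 around a median of 2.25 in HF low RFI pigs and from 1.42 to 2.37 around 1.92 in HF high RFI pigs. On the LF diet it ran from 1.45 to 3.21 around 1.94 in the low RFI line and from 1.39 to 2.13 around 1.77 in the high RFI line. Low RFI medians were higher on both diets, with overlap, and 5 of 24 low RFI pigs lay above the highest high RFI pig while none lay below the lowest. The line difference was 0.33 ± 0.09 (SE, 24 pigs per line, adjusted p = 0.0334), a fold change of 1.26.

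This difference held its sign on every slide, from 0.16 to 0.66, and it was 0.36 on the HF diet and 0.30 on the LF diet. It was called whichever pig was left out, at 0.28 to 0.36, the lowest being without pig 11 of the LF low RFI group. Taken alone, neither diet gave a call (adjusted p = 0.279 on HF and 0.688 on LF in the same fit).

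The other 3 SLA-DQB1 probes were not called. At bases 850, 1061 and 1104 the low RFI minus high RFI values were 0.04 ± 0.10, 0.02 ± 0.08 and 0.19 ± 0.14 (SE), with adjusted p of 0.948, 0.977 and 0.752. A probe of the array under the human name HLA-DQB1 gave 0.19 ± 0.09 (adjusted p = 0.469). The contrast between probes was tested directly by fitting each probe minus the mean of the other probes of its gene, over the 11983 probes of genes with several probes above background. In that fit, chosen after the values were seen, the base 13 probe was 0.25 ± 0.05 higher in low RFI pigs relative to its companions (adjusted p = 0.00185). The base 850 probe was -0.14 ± 0.03 relative to its own companions (adjusted p = 0.0071) with a fold below the limit. The base 13 probe is among those companions, so that the base 850 value is not a separate observation. Of 25 member probes the base 13 probe was the only one called between lines, where 2.43% of the 11983 were called. The CD74 probe O12719 was -0.07 ± 0.02 relative to its companions (adjusted p = 0.0288), also with a fold below the limit. At an unadjusted p under 0.05 between lines were also SLA-DQB1 at base 1061 and both SLA-DQA1 probes. So were SLA-DRA at base 1116 and SLA-DRB1 at base 608. Between diets 0 of the 25 were called and 4.31% of all, with 1 of the 25 at an unadjusted p under 0.05 (SLA-DRA at base 1003, -0.03 ± 0.01).

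**Figure D3:**
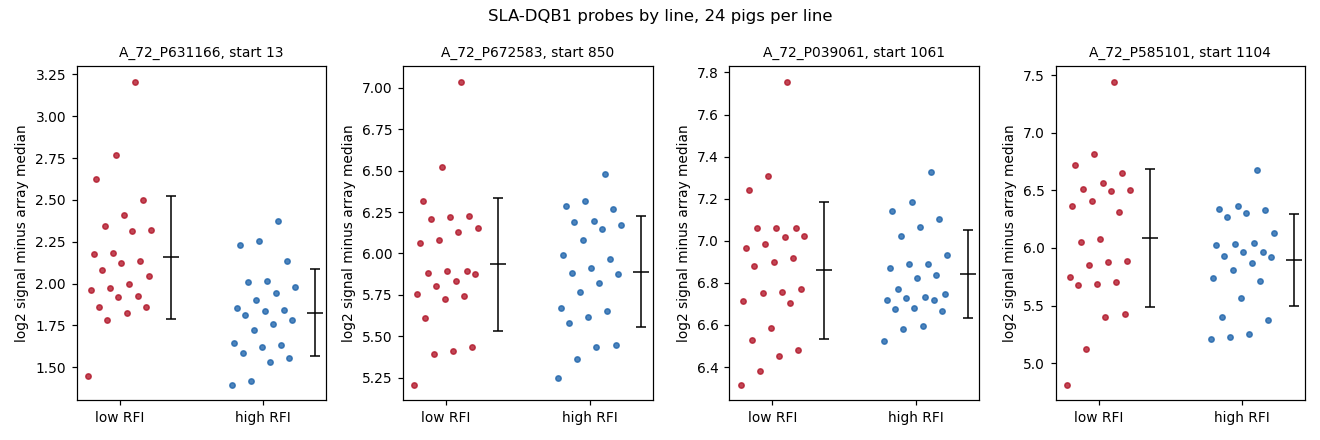
The 4 SLA-DQB1 probes by line in log2 signal minus array median, 1 point per pig and 24 pigs per line, with mean and SD. At base 13 the low RFI pigs sit higher (mean 2.16 against 1.83), whereas at base 1061 the means are 6.86 and 6.84.

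The widest spread between pigs was found in SLA-DQA1, the DQ alpha chain. At base 277 the SD within groups was 0.996, larger than that of 99.4% of the probes above background on all arrays. Values ran from 1.70 to 4.53 around a median of 3.16 in HF low RFI pigs and from 1.35 to 3.62 around 2.91 in HF high RFI pigs. On the LF diet they ran from 1.37 to 5.13 around 2.87 in the low RFI line and from 1.46 to 3.13 around 2.60 in the high RFI line. Low RFI pigs thus reached higher values while the low ends were alike. The SD was 1.17 and 1.32 in the low RFI groups and 0.746 and 0.557 in the high RFI groups, on HF and LF respectively.

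Of the 24 low RFI pigs, 11 (6 on HF, 5 on LF) exceeded the highest high RFI pig on this probe, at 3.81 to 5.13. In HF low RFI pigs a gap of 1.44 separated 6 pigs at or below 2.44 from 6 at or above 3.88. In LF low RFI pigs the widest gap was 0.83 and separated only pig 11 from the other 11, and in the high RFI groups it was 0.53 on HF and 0.70 on LF, each time between 3 low pigs and 9 others. The difference between line means was 0.39 ± 0.28 (SE, adjusted p = 0.743).

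At base 1110 SLA-DQA1 gave the opposite sign between lines. High RFI pigs ran from 4.10 to 5.08 around 4.57 on HF and from 3.95 to 4.76 around 4.36 on LF, whereas low RFI pigs ran from 3.37 to 4.72 around 4.23 and from 3.54 to 4.83 around 4.16. The low RFI medians were lower on both diets, and 9 of 24 low RFI pigs (5 on HF, 4 on LF) lay below the lowest high RFI pig. The line difference was -0.32 ± 0.10 (SE, p = 0.0036, adjusted p = 0.126) and was negative on all 6 slides, from -0.82 to -0.02. It was called when pig 11 or 4 of the LF low RFI group or pig 7 of the HF low RFI group was left out, at -0.35 without the first of these. The difference between both SLA-DQA1 probes in their response to line was 0.71 ± 0.32 (adjusted p = 0.374).

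The overlapping SLA-DQA probe at base 310 had an SD within groups of 0.930 and a line difference of -0.57 ± 0.26 (SE, adjusted p = 0.414), opposite in sign to that of the base 277 probe it overlaps. On both probes 16 pigs lay below 2.2, which were 10 low RFI and 6 high RFI pigs, and no pig was below that level on only 1 of them. The 11 low RFI pigs that exceeded the high RFI line at base 277 lay at 2.56 to 4.01 at base 310, inside the range of the other pigs (1.49 to 4.71), and at 3.37 to 4.83 at base 1110. None of the 7 SLA-DQA probes was called between lines. The probes at bases 503, 528, 555 and 860 had line differences of 0.14, 0.19, 0.19 and 0.09, with adjusted p of 0.411 to 0.896 and an SD within groups of 0.303 to 0.434. Those at bases 1012 and 1068 had an SD of 0.270 each and line differences of -0.03 and 0.01. The SLA-DQA1 probe at base 1110 overlapped the base 1068 probe by 56 bases with 3 mismatches. Genotypes of the pigs were not analysed here, and the part of alleles in these differences was not tested.

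**Figure D4:**
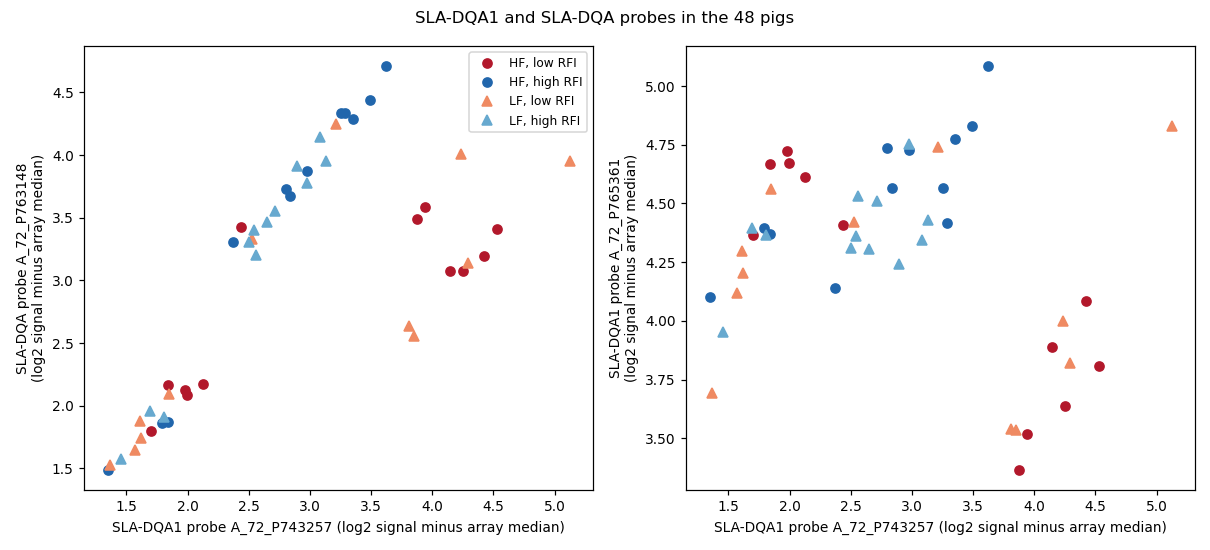
SLA-DQA1 at base 277 (x axis) against SLA-DQA at base 310 (left) and SLA-DQA1 at base 1110 (right) in the 48 pigs, in log2 signal minus array median, with red circles and orange triangles for the low RFI groups on HF and LF and blue for the high RFI groups. The 11 points right of 3.62 are all low RFI pigs, and on the vertical axes they lie at 2.56 to 4.01 and at 3.37 to 4.83.

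The DR chains took opposite signs between lines, with no call. The 7 SLA-DRA probes had low RFI minus high RFI differences of 0.09 to 0.15 and the 4 SLA-DRB1 probes differences of -0.17 to -0.11. At base 893 SLA-DRB1 (A_72_P545751) had a median of 6.15 in HF low RFI pigs, 6.35 in HF high RFI, 6.07 in LF low RFI and 6.32 in LF high RFI pigs, within ranges of 5.41 to 6.75 overall. Its line difference was -0.17 ± 0.10 (SE, adjusted p = 0.646). The probe of DRB3, a name of another DR beta gene, gave -0.14 ± 0.10.

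None of the peptide-loading genes was called between lines. The differences were 0.07 and 0.04 for SLA-DMA, 0.01 and -0.03 for SLA-DMB and 0.02 to 0.10 for the CD74 probes with adjusted p of 0.745 to 0.989. SLA-DOB gave -0.04, -0.10 and -0.22, the last on its brightest probe (base 1197, SD within groups of 0.580), where values ran from -1.58 to 0.85 and the groups overlapped throughout.

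No member probe was called for the interaction of diet and line, that is, for a diet difference that changes with the line. The limma fit called 0.0% of all probes, and 0 of the 28 member probes had an unadjusted p under 0.05, the smallest being 0.362 (SLA-DRA at base 250). Over all probes 1680 had an unadjusted p under 0.05, and the analysis of variance called none either. In the low RFI line the members' median diet difference was 0.20, and in the high RFI line 0.14.

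Once group means were removed, probes of the same gene moved together from pig to pig in SLA-DRA, SLA-DRB1, SLA-DMA, SLA-DMB and CD74. The SLA-DQB1 probes and the SLA-DOB probes were less alike among themselves. Correlations over the 48 pigs are a description of values that share arrays and scaling. For SLA-DQA1 no median is given, because at base 277 pigs fell into separate sets. The correlation (r) of this probe with SLA-DQB1 probes ran from 0.136 at base 1061 to 0.807 at base 850 and 0.923 at base 1104. With SLA-DOB it was 0.157 at base 199, 0.559 at base 700 and 0.794 at base 1197. With SLA-DRA probes it ran from 0.0397 to 0.313, and with the other SLA-DQA1 probe it was -0.185. Between probes of a gene, r was 0.909 to 0.989 in SLA-DRA, 0.978 to 0.987 in SLA-DRB1, 0.955 to 0.989 in CD74, 0.900 in SLA-DMA and 0.911 in SLA-DMB. It was 0.401 to 0.916 in SLA-DQB1 and 0.258 to 0.703 in SLA-DOB. Between genes the median r with the SLA-DRA probes was 0.771 for SLA-DMA, 0.756 for CD74, 0.749 for SLA-DMB, 0.600 for SLA-DQB1, 0.569 for SLA-DRB1 and 0.0709 for SLA-DOB. The DM chains had a median r of 0.861 with each other. With CD74, SLA-DMA and SLA-DMB the median r was 0.740, 0.726 and 0.677 for SLA-DQB1 and 0.676, 0.670 and 0.620 for SLA-DRB1. Between SLA-DOB and SLA-DQB1 probes the median r was 0.362 (0.122 to 0.845). The highest was between SLA-DOB at base 1197 and SLA-DQB1 at base 1104.

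Over 10914 other named genes, those most like the brightest SLA-DRA probe included HLA-DRA (r = 0.955), whose probe shared 57 bases with the SLA-DRA probe at base 878, GVIN1 (0.767), ARHGAP30 (0.760), B2M (0.750), CORO1A (0.738), LCP1 (0.726), RAC2 (0.723), ARHGAP15 (0.720) and GBP2 (0.712). B2M encodes the light chain of MHC class I, CORO1A, LCP1 and RAC2 proteins of the leukocyte cytoskeleton, and GBP2 an interferon-induced GTPase. Leaving out the pair of pigs farthest from the SLA-DRA median brought r to 0.607 to 0.700 for the 8 genes named after HLA-DRA. ARHGAP30, CORO1A and RAC2 were themselves called higher in HF pigs, by 0.33, 0.35 and 0.33.

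Other genes of the pathway were taken from 4 lists with 31 of 35 genes on the array, by the brightest probe of each. Between diets 4 of the 31 were called, 2 higher and 2 lower in HF pigs, while 21.3% of all named genes were called (5.09% higher, 16.2% lower). Their median difference was -0.02. Between lines 2 were called, both lower in low RFI pigs, against 2.27% of named genes (1.26% higher, 1.01% lower), with a median of -0.01.

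None of the 7 genes for transcription of class II genes was called in either comparison, with adjusted p between diets from 0.0784 (RFXANK, -0.11 ± 0.05) to 0.972 (RFXAP). At an unadjusted p under 0.05 there was 1 between diets and 0 between lines. Those genes encode the RFX subunits (RFX5, RFXAP, RFXANK), the NF-Y subunits (NFYA, NFYB, NFYC) and CREB1, which bind class II promoters. CIITA, the class II transactivator, had no probe under that name.

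Among 9 genes of endosomal peptide supply, the proteases CTSD and CTSH fell in HF pigs, by 0.40 ± 0.08 and 0.45 ± 0.09 on the log2 scale. CTSS, the cathepsin that trims the invariant chain, had a difference of 0.29 ± 0.12 (adjusted p = 0.0766, raw p over 0.01), and IFI30, a thiol reductase, one of 0.35 ± 0.21. CTSC, cathepsin C, was called between lines, lower in low RFI pigs (-0.36 ± 0.08, adjusted p = 0.00391). Of 7 interferon gamma signalling genes, including IRF1 (-0.02 ± 0.09 between diets), none was called and 1 had an unadjusted p under 0.05 in each comparison.

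Costimulation and turnover gave 2 calls of 8 between diets. CD83, a surface protein of mature dendritic cells that stabilises class II, was 0.74 ± 0.22 higher in HF pigs (adjusted p = 0.0123), and MARCH8, a ubiquitin ligase, was 0.21 ± 0.04 higher. CD40, a costimulatory receptor, was lower in low RFI pigs (-0.46 ± 0.12, adjusted p = 0.0278). CD86, a ligand of T cell costimulation, had a diet difference of 0.22 ± 0.12.

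Macrophage markers differed between diets, where 5.09% of all named genes were called higher in HF pigs and 16.2% lower. Of 8 macrophage markers 6 were called higher in HF pigs, namely CD163 (0.70), CSF1R (0.48), AIF1 (0.36), MRC1 (0.66), TYROBP (0.41) and CD209 (0.87), with a median of 0.44. Their summed level, in multiples of the array median, ran from 37.3 to 181 in HF low RFI pigs, 42.7 to 170 in HF high RFI, 35.2 to 141 in LF low RFI and 41.6 to 80.9 in LF high RFI pigs, with medians of 99.0, 78.5, 56.7 and 65.6. Over pigs, r of some single markers with SLA-DRA was -0.06 for CD68, 0.29 for MRC1, 0.32 for CD163 and 0.58 for AIF1. The CD68 probe was not above background on all arrays. The part of macrophage number in the class II values was not tested, and in a piece of tissue fewer cells and less RNA per cell cannot be told apart.

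Of 10 T and NK cell markers CD3G and NKG7 were called higher in HF pigs (0.34 and 0.31), and 7 of the 10 had a higher mean there. Of all named genes 5.09% were called higher in HF pigs and 16.2% lower. The summed level of these 10 markers was not higher in HF pigs. Its medians were 101 in HF low RFI, 106 in HF high RFI, 111 in LF low RFI and 128 in LF high RFI pigs. Over pigs, r of some single markers with SLA-DRA was 0.708 for CD3G and 0.709 for KLRK1, and the values of the other T and NK markers are not reported here. None of 5 B and plasma cell markers was above background on all arrays, and 0 were called or had an unadjusted p under 0.05. Of 3 dendritic cell markers 0 were called and 2 had an unadjusted p under 0.05 between diets, while FLT3 was above background on no array. Adipocyte markers gave 3 calls of 7, all lower in HF pigs (LEP -0.94, CIDEC -0.24, PPARG -0.19), and the kidney marker AQP2 was lower too (-0.63), 1 of 2 kidney markers with a probe. The 6 endothelial, 5 fibroblast, 2 mesothelial, 4 adrenal and 4 lymph node markers gave 0 calls between diets, with 1 endothelial and 1 fibroblast marker at an unadjusted p under 0.05. Between lines no marker of any list was called, and 2 endothelial and 1 fibroblast marker had such a p.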

How the data were processed

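RNA of PRAT from 48 pigs was labelled with Cy3 and hybridised to 1-colour porcine Agilent arrays. The intensity values used here were deposited by the authors as scanner output, with the median signal of each spot, not normalized. The deposited series table holds log2 values that the authors had filtered and centred on each array's median, with R 2.10.0 named in the submitters' processing notes. All of its 38142 entries matched a spot by value, but only 2 carried that spot's name, so it served only to learn which probes the authors kept (26 of the 28 member probes).

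The log2 median signal minus the array's median over 60306 non-control spots was computed, flagged spots were left out and spots of a probe were averaged. Spots hold no counts, so that precision is limited by the number of arrays. limma 3.58.1 in R 4.3.3 fitted 4 group means over 60305 probes without a filter on low values, with contrasts for diet, line and interaction and Benjamini-Hochberg adjustment, two-sided. It was tested on simulated data. Calls needed a raw p under 0.01, a fold over 1.1 and an adjusted p under 0.08. These thresholds and the terms diet, line and interaction follow the study's methods, whose test was a two-way analysis of variance on filtered spots, here an alternative. The named genes are every member probe, every gene of the pathway and marker lists that has a probe, and the 10 genes most correlated with the brightest SLA-DRA probe. Some genes under this rule are not reported here or enter only counts. Members and lists were chosen with earlier results of these data known. Alternatives covered scaling, background, filters, blocks, weights, the analysis of variance and thresholds. Leaving out single arrays and the probe-against-companions fit were added after seeing the data. Probe sequences come from the scanner files, as do gene names, and positions are those the files give on the listed transcript (the genome build is not given in the sources used here). No array of the pigs' subcutaneous fat was analysed here.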

Additional observations from a re-analysis of the deposited data

How the results depend on the processing

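The number of member probes called between diets, 0 as reported, was 1 with arrays scaled to their 75th percentile, 5 with quantile normalization, 3 with normexp and quantile normalization and 4 with array weights, all higher in HF pigs (of all probes 8.27%, 8.62%, 7.93% and 6.38% were called higher under these settings), and from 0 to 12 when 1 array was left out. It was 0 under the other alternatives run. The number called between lines, 1 as reported, was 0 within the HF diet alone, 0 within the LF diet alone and 0 with a fold over 1.5, and 1 to 2 without 1 array. The interaction count was 0 throughout. Of the pathway genes, 4 between diets, 2 were called within the low RFI line alone, 2 within the high RFI line alone and 1 with a fold over 1.5 (4 to 5 without 1 array). Of the 2 between lines, 0 were called within either diet alone and 0 with a fold over 1.5 (2 to 3 without 1 array). Over the 28 probes and their alternatives, 494 diet values kept their direction and side of the threshold, 25 passed it and 8 changed sign. The same counts between lines were 513, 1 and 10, with 3 falling short, which were those of the SLA-DQB1 base 13 probe under the settings above.

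Sign changes fell on differences near 0. Between diets these were SLA-DQA1 at base 1110 in the low RFI line alone (-0.000589), SLA-DOB at base 199 in the high RFI line alone (-0.0456) and SLA-DOB at base 700, which was 0.00923 at the 75th percentile, 0.0194 with quantile normalization, 0.0940 on the processed signal, 0.0113 with normexp, 0.0536 in the high RFI line alone and 0.00939 without pig 11 of the LF low RFI group. Between lines and without that pig, SLA-DQB1 was -0.0103 at base 850 and -0.0278 at base 1061, SLA-DMA -0.0130 at base 998, SLA-DMB -0.0438 at base 429 and CD74 -0.0206 on O12719. On the LF diet alone SLA-DMA at base 998 was -0.00527 and SLA-DMB at base 429 was -0.0316 (-0.0154 with array weights). On the HF diet alone SLA-DMB at base 1224 was 0.00779 and SLA-DOB at base 199 was 0.0240. The causes were not tested. No scaling moved the median of all probes by more than 0.0390.

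With the replicate number as a block, 0 member probes were called between diets and 1 between lines, as with the slide as a block. Each number lay on a single slide. Of 72 same-numbered pairs, 38 correlated above 0.1 (median 0.137, against -0.0185 for other numbers), and 19 of 48 arrays correlated best with their own number. Since not every pair passed 0.1, the main fit did not take the numbers as pairing the pigs. That rule does not decide whether the pigs were paired, and the part of the slide in these correlations was not tested.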
